A study of Mus musculus with 2 samples.

Results

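The genes described here encode the heterotrimeric G protein subunits, chosen by symbol: Gα genes other than Gnas, the Gβ genes and the Gγ genes of the mouse catalogue that had reads in both libraries of the series. Of 33 genes with such a symbol in GENCODE M21, the mouse gene annotation used for these data, 26 qualified, out of 18311 known genes with reads in either library and 14614 with reads in both. They were 11 Gα, 6 Gβ and 9 Gγ genes. The symbol pattern also takes Gnb1l, a WD-repeat gene named for its likeness to Gnb1.

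Long-read RNA sequencing libraries came from 14-day-old male mice of the hybrid B6CASTF1/J, which has a C57BL/6 and a CAST/Ei parent. The labels of both libraries give the tissue as layer of hippocampus. Both belonged to a single group, replicates 1 and 2, each made per the labels from a pool of 3 males and 2 µg of RNA. The labels of the samples list separate animals, but the text on the experiment lists the same ones for replicates 1 and 2. The libraries may thus be technical replicates. The p-values here measure departure from counting error alone and no spread between animals. There was no treatment and no contrast between conditions.

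A heterotrimeric G protein couples a receptor of the cell surface to enzymes and channels inside. The receptor makes the α subunit exchange GDP for GTP, after which α and the βγ dimer act separately until α hydrolyses its GTP. Gi, Go and Gz inhibit adenylyl cyclase or, through βγ, open GIRK potassium channels, Gq and G11 activate phospholipase C beta, G12 and G13 act on RhoGEFs, and Golf stimulates adenylyl cyclase. In brain, Go is known as an abundant protein of neuronal membranes that serves GABA-B, adenosine and many other receptors.

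The last codons of a Gα gene encode the stretch that meets the receptor, and pertussis toxin modifies a cysteine at the fourth position from the end. The last 11 coding codons of the most-read coding transcript, with the fourth codon from the end in capitals, are shown because they separate the pertussis-toxin-sensitive members from the others. They were read 5′ to 3′ on the coding strand from the GENCODE M21 transcripts (mm10, GRCm38). TGT or TGC, the cysteine codons, stood there in 5 of the 11 ends read, those of Gnai1, Gnai2, Gnai3 and both ends of Gnao1. The Gnal end was not among those read, and that of Gna15, with ATC at this codon, was counted but is not printed.
Gnao1, downstream exons (chr8:93967020-93967052, plus strand): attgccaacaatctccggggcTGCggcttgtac
Gnao1, upstream exons (chr8:93956217-93956249, plus strand): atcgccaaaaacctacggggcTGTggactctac
Gnai1 (chr5:18267022-18267054, minus strand): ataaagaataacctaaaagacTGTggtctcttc
Gnai2 (chr9:107615638-107615670, minus strand): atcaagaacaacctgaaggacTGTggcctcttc
Gnai3 (chr3:108109425-108109457, minus strand): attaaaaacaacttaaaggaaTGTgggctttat
Gnaz (chr10:75015177-75015209, plus strand): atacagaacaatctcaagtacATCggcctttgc
Gna11 (chr10:81530798-81530830, minus strand): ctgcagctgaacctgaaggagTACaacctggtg
Gnaq (chr19:16383359-16383391, plus strand): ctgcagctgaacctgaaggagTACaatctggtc
Gna12 (chr5:140760552-140760584, minus strand): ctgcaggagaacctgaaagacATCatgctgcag
Gna13 (chr11:109396451-109396483, plus strand): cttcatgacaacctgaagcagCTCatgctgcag

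The Gγ genes end in a motif of 4 codons that directs a lipid onto a cysteine and so holds the βγ dimer at the membrane. The last 10 coding codons are shown with these 4 codons in capitals, because the last codon separates Gng11 from the other members. The motif began with TGT or TGC in 9 of 9 detected Gγ genes. A last codon of TTA, TTG or CTN, all of which encode leucine, stood in 8 of 9, and the TCA of Gng11 encodes serine. As background, a leucine there directs a geranylgeranyl group and a serine a farnesyl group. Gng2, Gng3 and Gng4 shared the same 6 codons before the motif.
Gng2 (chr14:19875810-19875839, minus strand): cgggagaagaagttcttcTGCGCCATCCTT
Gng3 (chr19:8838146-8838175, minus strand): cgggagaagaagttcttcTGTGCGCTCCTC
Gng4 (chr13:13825343-13825372, plus strand): cgggagaagaagttcttcTGCACCATCCTC
Gng7 (chr10:80951624-80951653, minus strand): ttcaaagacaaaaagcctTGCATAATTCTC
Gng12 (chr6:67017557-67017586, plus strand): ttcaaggataagaagaccTGCATCATCTTA
Gng10 (chr4:59039320-59039349, plus strand): ttccgggagcccaggtccTGTGCTCTACTT
Gng5 (chr3:146503353-146503382, plus strand): ttcagaccccagaaagtcTGCTCCTTTTTG
Gng13 (chr17:25719000-25719029, plus strand): tgggtagagaaggccaagTGCACCATCCTA
Gng11 (chr6:4008128-4008157, plus strand): ttcaaagaaaagggcagcTGTGTCATTTCA

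Whole coding sequences were compared within each class. The closest Gα pair was Gna11 and Gnaq, with 80.8% of bases identical over the longer coding sequence, and the closest Gβ pair was Gnb1 and Gnb4, at 77.3%. Gng2 and Gng4 were the closest Gγ pair, at 73.3%. Annotated transcripts of other genes with at least 90% identity over at least 50% of a member's coding sequence were found for 3 members, Gng2, Gng5 and Gng10. None of the 8 near copies had a read in either library.

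Replicate 1 held 821324 mouse reads and replicate 2 held 743862. Levels are given as reads and as CPM, counts scaled to 1000000 mouse reads of the library. A long read stands for a single transcript, so levels were not divided by length. Whether longer transcripts were read less often was not tested. A read was worth 1.22 CPM in replicate 1 and 1.34 CPM in replicate 2, and 3 reads, the limit that a count of 0 allows, were 3.65 and 4.03 CPM. These limits and all intervals cover counting error only. Reads in either library were found for 5 of 5 pyramidal, 3 of 3 dentate granule, 5 of 5 GABAergic and 6 of 6 astrocyte markers. The dentate marker Dsp (0 and 4 reads) and the GABAergic marker Slc32a1 (4 and 3) were near the limit for a count of 0.

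The 26 genes together reached 2850 reads in replicate 1 and 2701 in replicate 2, a level of 3551 ± 114 CPM (SD, n = 2). That was 0.347% and 0.363% of the mouse reads. Gα genes held 45.5% of these reads in replicate 1, with a Wilson 95% interval of 43.7% to 47.4%. In replicate 2 they held 42.6% (40.8% to 44.5%). Gβ genes held 32.9% and 34.5%, and Gγ genes 21.5% and 22.8%. Without Gnb1l, the Gβ share was 32.6% and 33.8%. The order Gα, Gβ, Gγ was the same in both libraries, with no overlap of the summed levels: 1580 and 1547 CPM for Gα, 1142 and 1254 for Gβ, 748 and 829 for Gγ. The Gα sum leaves out Gnas, so the proportions are not those of the whole subunit pool.

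**Figure D1:**
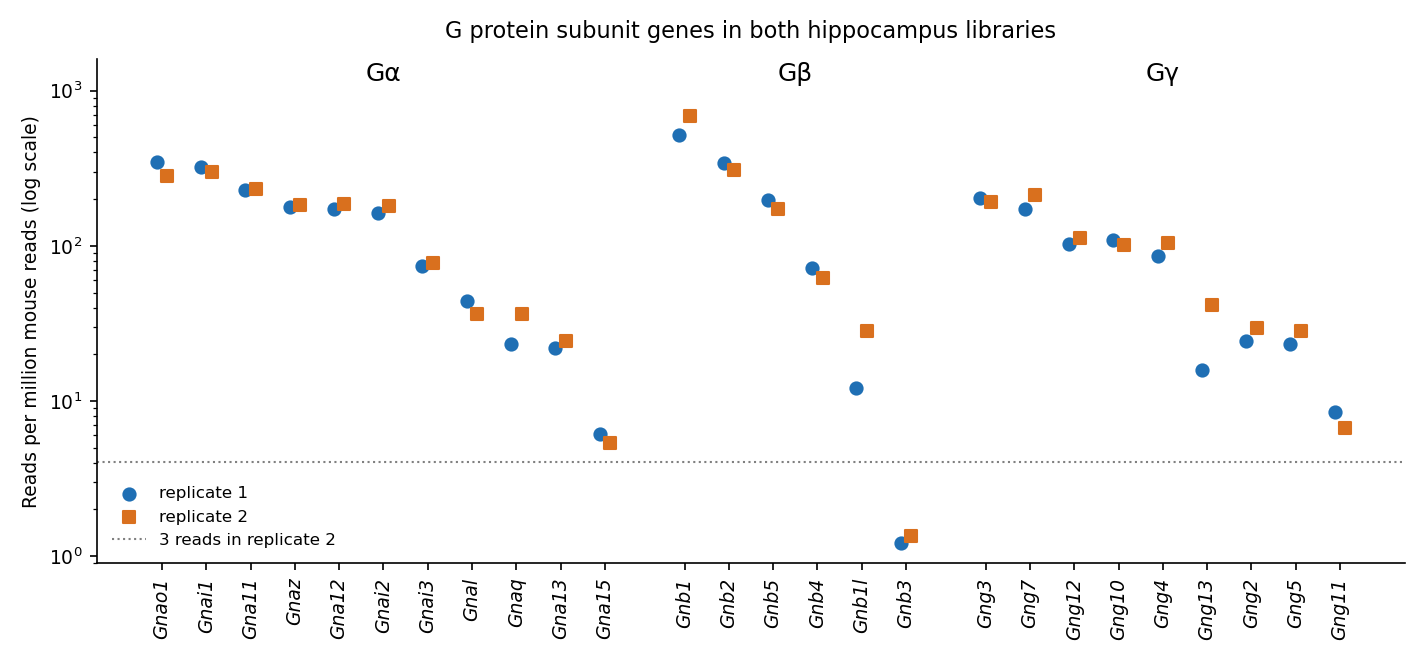
Level of each of the 26 genes in CPM (log axis) in replicate 1 (circles) and replicate 2 (squares), by subunit class and in order of the mean. The dotted line marks 3 reads in replicate 2 (4.03 CPM). Gnb1 stood highest in both libraries and Gnb3, with 1 read in each, lowest.

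The Gi/o family made up most of the Gα reads measured here, 68.6% in replicate 1 (66% to 71.0%) and 66.3% in replicate 2 (63.5% to 69%). Gq family genes held 16.3% and 17.8%, G12 family genes 12.3% and 13.6%, and the Golf gene Gnal 2.77% and 2.35%. The interval of each family overlapped between the libraries.

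Gnao1, which encodes αo (mm10 chromosome 8, 93809966 to 93969388), had 284 reads in replicate 1 and 211 in replicate 2, or 346 and 284 CPM. Gnai1, an inhibitory α subunit (chromosome 5, 18265135 to 18360355), had 264 and 223 reads, or 321 and 299.8 CPM. Their order depended on the library: Gnao1 was above Gnai1 in replicate 1 and below it in replicate 2. The means, 315 ± 43.9 and 311 ± 15.3 CPM (SD, n = 2), differed by less than either spread.

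Gnaz, whose product αz hydrolyses GTP slowly and lacks the toxin's cysteine, had 147 and 137 reads, 182 ± 3.67 CPM (SD, n = 2). Gnai2, an inhibitory α subunit found in most cell types, had 134 reads in both libraries, 172 ± 12 CPM. Gnai3 was lower, with 61 and 58 reads, or 74.3 and 78.0 CPM. Gnai3 was thus the least read of the detected inhibitory subunits, and its values lay below those of the other 4 family members in both libraries.

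Gna11, which activates phospholipase C beta, was the third Gα gene in level in both libraries, at 188 and 174 reads, 231 ± 3.55 CPM (SD, n = 2). Gnaq, whose product acts on the same enzyme, had 19 and 27 reads, or 23.1 and 36.3 CPM. Gna11 and Gnaq did not overlap: the lower Gna11 value was above the higher Gnaq value. Most Gnaq reads were not spliced transcripts: 13 of 19 and 19 of 27 came from single-exon models, and 5 and 7 reads matched an annotated transcript. The main Gnaq transcript is 5644 bases long, against 3414 for Gna11, and the part of length in this difference was not tested. Gna15, the family member known from blood cells, had 5 and 4 reads, close to the limit for a count of 0, and Gna14 had 0 and 1.

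Gna12 had 142 and 138 reads, 179 ± 8.93 CPM (SD, n = 2), and its relative Gna13, which also acts on RhoGEFs, had 18 and 18. The levels of Gna13 were 21.9 and 24.2 CPM, below Gna12 in both libraries. The main Gna13 transcript is 6160 bases long, against 3416 for Gna12, and the part of length in this difference was not tested. Gnaz, Gna12 and Gnai2 were neighbours in level and were not separated: replicate 1 placed them at 147, 142 and 134 reads, replicate 2 at 137, 138 and 134. Gnal, which encodes αolf, the olfactory and striatal α subunit, had 36 and 27 reads (43.8 and 36.3 CPM). The summed level of 5 striatal projection neuron markers was 60.9 and 41.7 CPM, most of it from Ppp1r1b (40 and 16 reads). On few reads, Rgs9 (7 and 9), Drd1 (2 and 4) and Drd2 (1 and 2) were higher in replicate 2. Adora2a was at 0 in both libraries. The part of striatal cells in the Gnal level was not tested, nor was that of the length of its main transcript, 5736 bases. The transducin genes of photoreceptors and taste cells were at or under the limit for a count of 0, with no read of Gnat1 or Gnat2 and 0 and 1 of Gnat3.

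Gnb1, on chromosome 4, was the most abundant of the 26 genes and was read 423 times in replicate 1 and 508 times in replicate 2. Gnb2, its close relative on chromosome 5, had 282 and 228 reads, 325 ± 26 CPM (SD, n = 2). Gnb5, which pairs with RGS proteins of the R7 group in neurons instead of Gγ, had 163 and 129 reads, 186 ± 17.7 CPM. The order Gnb1, Gnb2, Gnb5, Gnb4 was the same in both libraries, and the levels of neighbours did not overlap. Gnb4 had 59 and 46 reads, or 71.8 and 61.8 CPM. Its main transcript is 5997 bases long, against 3131 for Gnb1, and the part of length in this order was not tested. Gnb3, known from retina and taste cells, had 1 read in each library, under the limit for a count of 0. Gnb1l had 10 and 21 reads, or 12.2 and 28.2 CPM. Within the Gβ genes, Gnb1l included, Gnb1 held 45.1% of reads in replicate 1 (41.9% to 48.3%) and 54.4% in replicate 2 (51.2% to 57.6%).

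Gng3, a Gγ gene known from neurons, and Gng7, known from striatum and other forebrain regions, led the Gγ class. Gng3 had 168 reads in replicate 1 and 142 in replicate 2, 198 ± 9.65 CPM (SD, n = 2). Gng7 had 141 and 159 reads, 193 ± 29.8 CPM. Gng3 was the higher in replicate 1 and Gng7 in replicate 2, so their order was not settled.

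Gng12 (85 and 84 reads, 108 ± 6.67 CPM, n = 2, SD), Gng10 (90 and 75 reads, 105 ± 6.19 CPM) and Gng4 (71 and 78 reads, 95.7 ± 13 CPM) formed a middle group whose order also changed between the libraries. Gng12 is known from glia and other non-neuronal cells as well as neurons. Each of these 3 genes lay below Gng3 and Gng7 in both libraries. The lower group held Gng13 (15.8 and 41.7 CPM), Gng2 (24.4 and 29.6), Gng5 (23.1 and 28.2) and Gng11 (8.52 and 6.72). Gng13, the γ subunit first known from taste cells, had 13 and 31 reads. Gngt2 had 1 and 0 reads, and Gng8 and Gngt1, the latter a rod photoreceptor subunit, had none.

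The test across genes compared these libraries, not conditions. For each of the 8875 genes that reached 20 reads in total, Fisher's exact test (two-sided, Benjamini-Hochberg adjustment, threshold 0.05) set the gene's reads against all other mouse reads. Of all genes tested, 1.58% were called, 0.744% higher and 0.834% lower in replicate 2. Of the 26 members, 23 had enough reads and 1 of them, Gnb1, was called (4.35%); 4 had an unadjusted p under 0.05. The median log2 ratio of replicate 2 over replicate 1 was 0.10 over the 23 members and 0.01 over all genes tested, with 15 members higher and 8 lower in replicate 2.

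Gnb1 stood at 515 CPM in replicate 1 and 683 CPM in replicate 2, a log2 ratio of 0.41 (Fisher's exact test, adjusted p 0.00299). Its annotated transcripts alone, at 333 and 415 reads, gave 0.46 (adjusted p 0.00295). Markers of myelinating oligodendrocytes moved the other way between the libraries: their summed level was 1971 CPM in replicate 1 and 1175 CPM in replicate 2. Of these markers, 6 of 6 were lower in replicate 2, and 4 of the 4 tested were called lower, beside 0.834% of all genes tested. Choroid plexus markers summed to 197 and 87.4 CPM, nearly all from Ttr (159 and 65 reads), which was called lower in replicate 2. Kcne2 (2 and 0 reads) and Folr1 (1 and 0) were under the limit for a count of 0, and Aqp1 was at 0. Pyramidal neuron markers were at 3354 and 3463 CPM with 0 of 5 called. Dentate granule markers were at 123 and 181 CPM, mostly from C1ql2 (89 and 111 reads), with 0 of 2 tested called. GABAergic markers were at 295 and 348 CPM with 0 of 4 tested called, and astrocyte markers at 2679 and 2830 CPM with 0 of 6. Markers of oligodendrocyte precursors were at 450 and 398 CPM (0 of 4 called) and of microglia at 315 and 284 CPM (0 of 6). Endothelial markers were at 455 and 393 CPM (0 of 3 tested called). Over all genes tested, 1.58% were called in either direction. The part of these cell types in the Gnb1 difference was not tested, and in whole tissue fewer cells of a type and less RNA per cell cannot be told apart.

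Gng13 had the largest log2 ratio of the tested members, 1.37 from 13 and 31 reads, and Gnb1l the next, 1.18 from 10 and 21 reads. Neither passed after adjustment (Fisher's exact test, adjusted p 0.116 and 0.395), nor did the lower Gnao1 count in replicate 2 (log2 ratio -0.28, adjusted p 0.397). Gng7, at a log2 ratio of 0.32, also did not pass (adjusted p 0.54). For the other 18 tested members the adjusted p was at least 0.693.

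**Figure D2:**
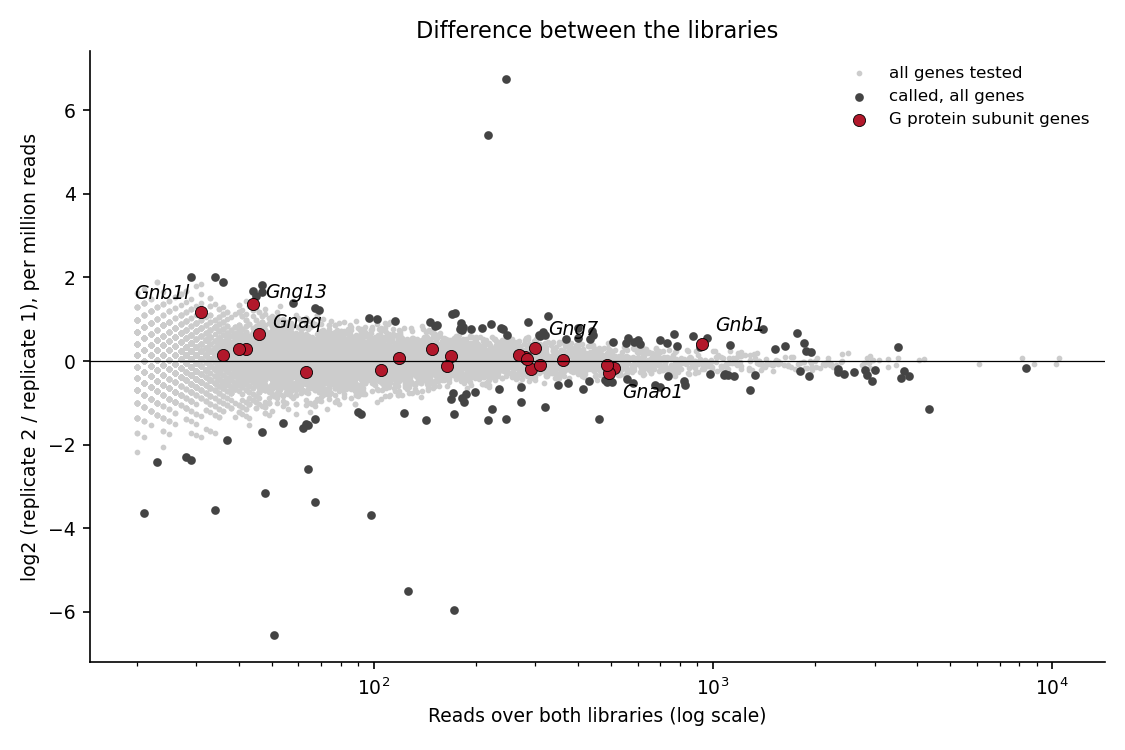
Log2 ratio of replicate 2 over replicate 1 against reads over both libraries (log axis) for all 8875 genes tested (grey), the genes called (dark) and the 23 tested subunit genes (red, some named). Gnb1 is the only red point that was called. Gng13 and Gnb1l have larger ratios on far fewer reads.

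Each read belonged to a transcript model with a class: annotated, new spliced (a new combination of annotated splice sites or a new splice site), incomplete (part of an annotated transcript) or genomic (unspliced or crossing intron sequence). Annotated transcripts held 81.5% of the members' reads in replicate 1 and 80.3% in replicate 2, against 72.1% and 70.5% for all known genes. Single-exon models held 9.82% and 11.4%, against 11.2% and 13% for all known genes. Among members with at least 50 reads the annotated share ran from 51.7% in Gng4 and 51.8% in Gnaz to 98.8% in Gng10.

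Among members with at least 20 reads over both libraries, single-exon models held the largest shares in Gnaq (68.4% in replicate 1 and 70.4% in replicate 2) and Gng2 (8 of 20 and 17 of 22 reads). Among members with at least 50 reads they held 37.6% and 28.9% of Gng7 reads, 36.6% and 42.3% of Gng4 reads, 30.6% and 33.3% of Gnal reads, and 22.2% and 22.3% of Gnao1 reads. In Gnai1 they held 1.14% and 1.79%. The Gng4 models covered the last exon (26 and 33 reads, 2650 bases long, chromosome 13, 13825247 to 13827896). In Gng7 the main single-exon model had its 3′ end at 80948624 on chromosome 10 (minus strand) in both libraries and was classed as incomplete in replicate 1 (52 reads) and as genomic in replicate 2 (46 reads). Gna11 had 26 genomic reads in replicate 1 and 25 incomplete reads in replicate 2 from models that likewise shared a 3′ end, at 81528724. So for these genes the class changed between the libraries while the number of single-exon reads stayed close.

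**Figure D3:**
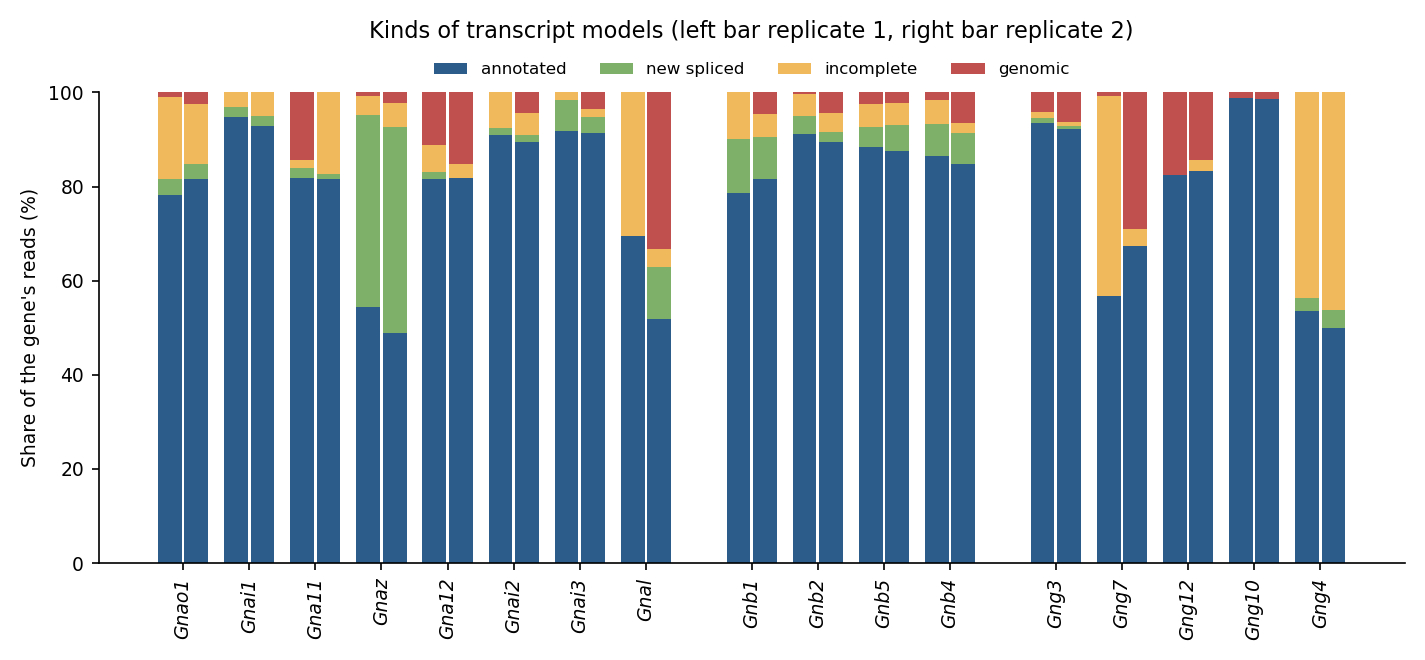
Share of each gene's reads (%) in annotated, new spliced, incomplete and genomic models for the 17 members with at least 50 reads, with replicate 1 as the left bar and replicate 2 as the right bar of each pair. Gnaz has the tallest new spliced part, and in Gna11, Gnal and Gng7 the incomplete and genomic parts trade places between the libraries.

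The Gnao1 gene has alternative pairs of last coding exons. The upstream pair (chr8:93953975-93954128 and the coding part chr8:93956065-93956249) and the downstream pair (chr8:93963384-93963537 and the coding part chr8:93966868-93967052) both hold 154 and 185 coding bases, and a transcript uses either. As background, the proteins from these ends are known as the splice forms of αo. The downstream pair was used by 180 of 181 spliced reads in replicate 1 and 133 of 136 in replicate 2. The upstream pair thus held 0.552% (Wilson 95% interval 0.0976% to 3.06%) and 2.21% (0.753% to 6.28%) of these spliced reads. The last exon of the upstream pair is the longer, from 93956065 to 93960690, against 93966868 to 93968956 downstream. The part of transcript length in these shares was not tested. These counts take annotated and new spliced transcripts, and with incomplete matches included the upstream pair had 2 of 210 and 3 of 159 reads. Single-exon models gave another view without a splice junction: 11 and 4 reads came from models within the region of the upstream pair and its last exon. Another 51 and 43 reads were of the annotated single-exon transcript Gnao1-212 (chr8:93965796-93969210), which covers the downstream last exon and part of the intron before it, not the other exon of that pair. Of these 62 and 47 single-exon reads, the upstream region held 17.7% (10.2% to 29.0%) in replicate 1 and 8.51% (3.36% to 19.9%) in replicate 2.

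The coding parts of the last exons differed at 59 of 185 bases, and the exons before them at 29 of 154. Of the 61 bases that close a codon lying wholly in the last coding exon, 38 differed. The last exons are printed because they are what tells reads of the splice forms apart, with capitals at each base that differs between them.
Gnao1 downstream last coding exon (chr8:93966868-93967052, plus strand): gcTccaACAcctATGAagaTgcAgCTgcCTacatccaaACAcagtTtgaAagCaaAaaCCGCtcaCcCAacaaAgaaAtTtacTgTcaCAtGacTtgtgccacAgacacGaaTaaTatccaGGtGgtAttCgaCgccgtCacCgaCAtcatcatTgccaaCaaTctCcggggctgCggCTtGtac
Gnao1 upstream last coding exon (chr8:93956065-93956249, plus strand): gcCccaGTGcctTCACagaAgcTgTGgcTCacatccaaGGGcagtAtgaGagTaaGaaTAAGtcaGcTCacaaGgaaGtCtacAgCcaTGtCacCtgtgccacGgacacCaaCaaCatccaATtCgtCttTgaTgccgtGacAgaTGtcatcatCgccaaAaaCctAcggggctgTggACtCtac

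Within the downstream form, transcripts differed after the stop codon. Gnao1-203 keeps the last exon whole and had 90 and 64 reads, and Gnao1-201 splices an intron out of the untranslated part and had 80 and 63 reads. Both carry the same coding sequence of 1062 bases. A last exon starting at 93966868, whole, was used by 51.9% of spliced reads in replicate 1 (44.7% to 59.1%) and 49.3% in replicate 2 (41.0% to 57.6%). A last exon starting at 93968032, after the intron, was used by 46.4% and 47.1%. The Gnao1 shares did not differ between the libraries beyond counting error (Fisher's exact test, p 0.651, adjusted p 1). Gnao1 also had the second most transcripts of any member with at least 50 reads, 19 against 30 for Gnb1, most of them with few reads.

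Gnb1 had 3 annotated transcripts above 10% of its spliced reads over both libraries, all with the same coding sequence of 1020 bases. Gnb1-201 held 49.1% and 49.1%, Gnb1-202 held 24.9% and 25.9%, and Gnb1-203 held 9.97% and 13.9%. They differ outside the coding sequence. A 49-base second exon (chr4:155515631-155515679), which precedes the start codon, was included in 239 of 370 informative reads in replicate 1 and 297 of 452 in replicate 2, or 64.6% (59.6% to 69.3%) and 65.7% (61.2% to 69.9%). The last exon, beyond the stop codon, began at 155557471 in 80.8% and 77.6% of reads and 3 bases earlier, at 155557468, in 18.6% and 21.3%. Higher Gnb1 reads in replicate 2 thus came with similar shares of each form.

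Gnaz has a coding sequence of 1065 bases in 2 coding exons, and its main variation lay before the start codon. Its main first exon, ending at 74967382 on chromosome 10, held 89.3% and 89.0% of spliced reads, and another, ending at 74992140, held 8.57% and 11.0%. A 66-base second exon (chr10:74978791-74978856) was included in 73 of 128 informative reads in replicate 1 and 55 of 113 in replicate 2, or 57.0% (48.4% to 65.3%) and 48.7% (39.7% to 57.8%). The intervals overlapped (Fisher's exact test, unadjusted p 0.199). The transcript that skips this exon joins annotated splice sites in a combination outside the catalogue, and it held 54 and 57 reads against 68 and 53 for Gnaz-201. Gnaz was the member whose reads rested most on a new combination, 39.4% of its reads over both libraries.

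Gng7 reads began at 3 alternative first exons that end at 81014856, 81001233 and 80997992 on chromosome 10 (minus strand, so the farthest upstream is named at the start). The farthest held 60% of spliced reads in replicate 1 (49% to 70%) and 64.5% in replicate 2 (55.1% to 72.9%), and the middle one 26.3% and 21.5%. The nearest, of Gng7-205, held 13.8% and 14.0%. Gng7-201 and Gng7-202, from the farther starts, have the same coding sequence of 207 bases, and that of Gng7-205 is 204 bases.

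Gng12 combined several starts and ends. Its main first exon, which ends at 66896527 on chromosome 6, held 72.9% of spliced reads in replicate 1 and 70.0% in replicate 2, and another ending at 66896515 held 21.4% and 18.6%. A 53-base second exon (chr6:66943825-66943877) was included in 34.3% (24.1% to 46.3%) and 26.1% (17.2% to 37.5%) of informative reads. Gng12-207, an annotated transcript of 748 bases, held 47.1% and 48.6%, Gng12-201, of 4248 bases, 22.9% and 17.1%, and Gng12-204, of 1876 bases, 11.4% and 14.3%, all with the same coding sequence of 216 bases. The Gng12 transcripts that passed the read minimum therefore differed only outside the coding sequence.

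Alternative first exons changed the annotated coding sequence in Gnal: Gnal-201, coding for 1344 bases, had 19 and 11 reads, and Gnal-202, coding for 1143 bases, had 5 and 3. The first exon of Gnal-201 held 80.0% (60.9% to 91.1%) and 82.4% (59.0% to 93.8%) of spliced Gnal reads. In Gna13, with 17 and 14 spliced reads, a near last exon was used by 8 and 7 reads and the far one by 9 and 7. These few reads leave wide intervals, 31.0% to 73.8% for the far exon in replicate 1. Gnai2 used another last exon in 8.06% and 10.7% of spliced reads.

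Other members were read almost wholly as a single transcript. In both libraries the main transcript held over 90% of spliced reads in 10 of the 16 members tested, including Gnai1 (97.7% and 97.6%), Gna11 (97.5% and 98.6%), Gna12 (98.3% and 100%), Gng3 (98.7% and 99.2%) and Gnb5 (95.4% and 94.2%). The share of the main transcript was called different between the libraries for 0.171% of 4684 genes tested and for 0 of 16 members by Fisher's exact test with Benjamini-Hochberg adjustment, and 0 of 16 had an unadjusted p under 0.05. For the main last exon, 0.0756% of 2644 genes and 0 of 5 members were called, with 0 unadjusted. For the main first exon, 0.108% of 3720 genes and 0 of 15 members were called by the same exact test, and 1 had an unadjusted p under 0.05. That 1 was Gnb1, whose main first exon held 95.8% and 98.3% (p 0.0379, adjusted p 1).

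**Figure D4:**
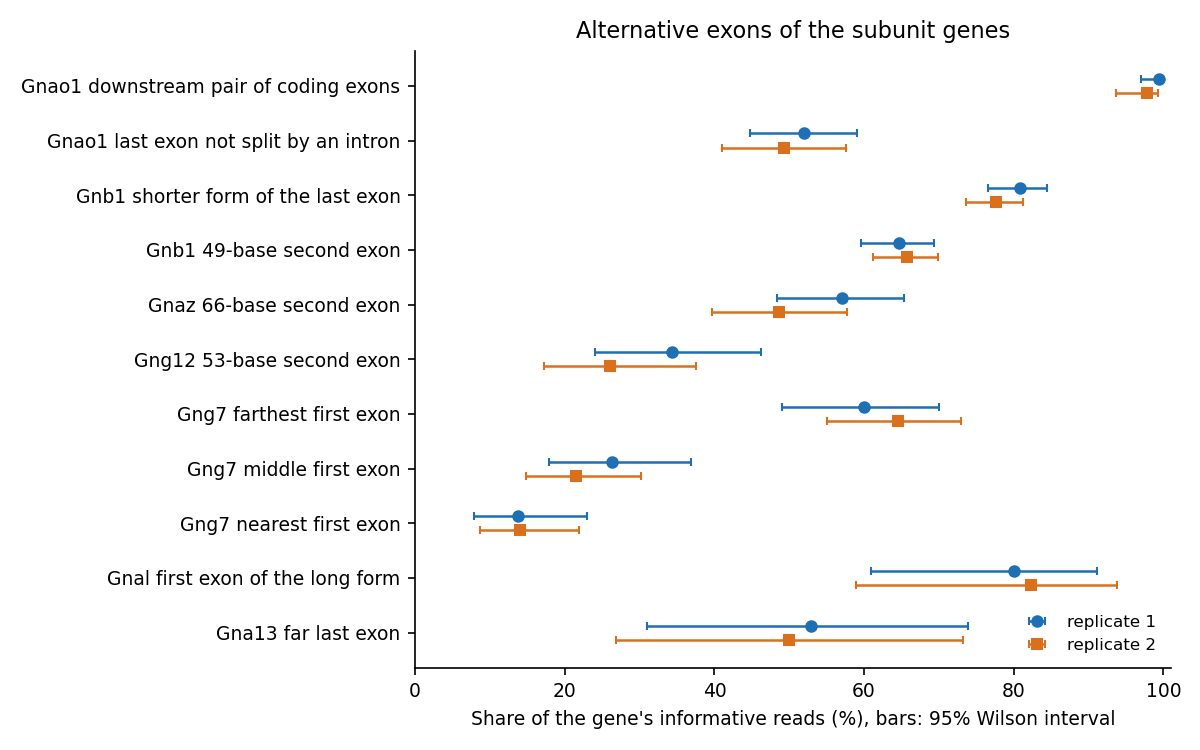
Share of informative reads (%) that used each named exon or exon form, in replicate 1 (circles) and replicate 2 (squares), with 95% Wilson intervals as bars. The intervals of the libraries overlap in every row. The downstream Gnao1 pair lies near 100% and the other forms lie between about 13.8% and 82.4%.

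Genes that act before and after the subunits were taken from 12 lists of 111 genes, of which 106 had reads. Of these, 61 were tested and 0 were called in either direction by Fisher's exact test, beside 1.58% of all genes tested. With 61 genes, a count of 0 does not set the lists apart from that share. An unadjusted p under 0.05 was found for 7. The list medians of the log2 ratio ran from -0.36 (phospholipase C beta) to 0.26 (Gq/11-coupled receptors), beside 0.01 over all genes tested. These medians rest on few genes: 2 tested for phospholipase C beta, of opposite sign (Plcb3 0.39, Plcb1 -1.11), and 3 for Gq/11-coupled receptors.

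Receptors coupled to Gi/o had the largest summed level of these lists, 861 CPM in replicate 1 and 895 in replicate 2, from 25 of 26 genes with reads. Their most abundant members were Gabbr1 (157 ± 9.22 CPM) and Gabbr2 (146 ± 17.5), which form the GABA-B receptor, and the adenosine receptor Adora1 (96.9 ± 23.0; SD, n = 2). Receptors coupled to Gq/11 summed to 195 and 234 CPM, led by the muscarinic receptor Chrm1 (97.5 ± 12.2), Adra1d (52.2 ± 5.38) and Grm5 (28.3 ± 5.60). The Gs-coupled list summed to 106 and 133 CPM, led by the PACAP receptor Adcyap1r1 (81.6 ± 12), Adrb1 (14.1 ± 0.986) and Crhr1 (8.42 ± 3.30). The order Gi/o, Gq/11, Gs held in both libraries, though the lists differ in size.

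The list of RGS genes, whose products speed GTP hydrolysis by Gα, also holds the binding proteins Rgs7bp and Rgs9bp. It summed to 661 and 601 CPM from 17 of 18 genes with reads, of which Rgs7bp gave 102 and 90.1 CPM. Rgs5 (139 ± 2.53 CPM; SD, n = 2), Rgs7bp (96.2 ± 8.63), an anchor of R7 RGS proteins and Gnb5, and Rgs4 (92.2 ± 12.5) led the list. GoLoco genes, whose products bind GDP-bound Gαi and Gαo, summed to 375 and 359 CPM, most of it from Rap1gap (268 ± 10.2), before Gpsm1 (75.3 ± 3.77) and Gpsm2 (22.4 ± 2.47). Rap1gap alone thus held most of the GoLoco sum.

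Chaperones of the subunits summed to 229 and 202 CPM. They were led by Ric8a (134 ± 24.1 CPM; SD, n = 2), a folding factor of Gα, before Pdcl (38.4 ± 0.878), which assists βγ assembly, and Pdcl3 (30.8 ± 3.96). Genes of lipid modification summed to 572 and 553 CPM, led by the myristoyltransferase Nmt1 (177 ± 8.75), the prenyltransferase α subunit Fnta (109 ± 15.8) and the palmitoyltransferase Zdhhc7 (75.7 ± 8.91). All 9 genes of the latter list had reads.

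Among effectors, adenylyl cyclases summed to 279 and 329 CPM, led by Adcy2 (92.1 ± 20.0 CPM; SD, n = 2), Adcy1 (80.6 ± 2.03) and Adcy3 (43.4 ± 2.39). Phospholipase C beta genes summed to 75.5 and 61.8 CPM, from Plcb3 (36.7 ± 7.08), Plcb1 (23.8 ± 12.8) and Plcb4 (6.89 ± 4.04). GIRK channel genes summed to 71.8 and 68.6 CPM, from Kcnj9 (44.7 ± 0.485), Kcnj3 (18.5 ± 1.42) and Kcnj6 (6.34 ± 1.36). These effector lists lay below the Gα, Gβ and Gγ sums in both libraries, but the sums differ in size. They cover 9, 4 and 4 listed effector genes against 11 Gα, 6 Gβ and 9 Gγ genes. RhoGEFs of G12 and G13 summed to 125 and 110.2 CPM, from Arhgef1 (55.6 ± 17.8), Arhgef12 (37.3 ± 8.03) and Arhgef11 (24.9 ± 0.969). Receptor kinases and arrestins, which switch receptors off, summed to 340 and 379 CPM, led by Grk6 (138 ± 14.2), Grk2 (107 ± 0.285) and Arrb1 (44.3 ± 5.81).

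**Figure D5:**
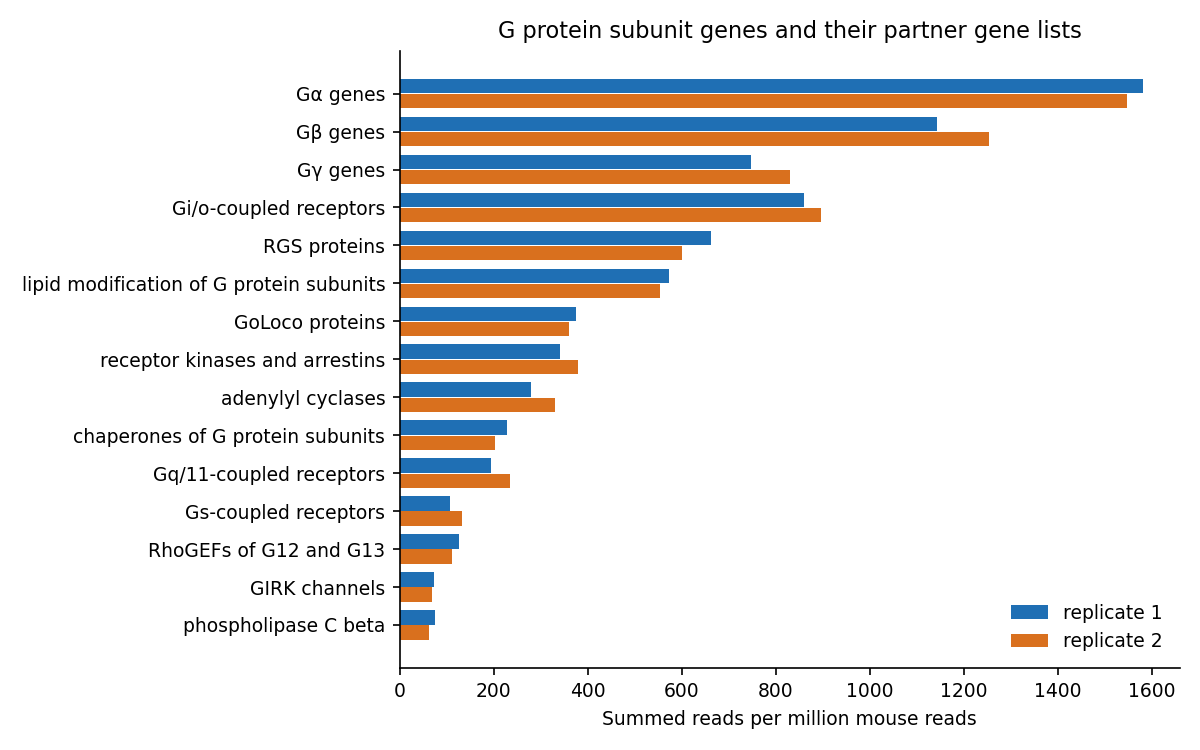
Summed CPM of the Gα, Gβ and Gγ genes and of the 12 partner lists, replicate 1 and replicate 2. The Gα, Gβ and Gγ bars run from 748 to 1580, and the longest partner bar, Gi/o-coupled receptors, reaches 861 and 895. The bars sum different numbers of genes.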

How the data were processed

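The deposited tables hold raw read counts per transcript model, made by the authors with mm10 and GENCODE M21, per the text deposited beside them. Neither aligner nor caller is given in the sources used here. Other deposited columns give exon numbers, lengths and positions. Counts were summed per gene over models of known genes. CPM used mouse reads, with ERCC spike-in reads left out, and log2 ratios added 0.5 reads to each count. A count test with replicated groups had no contrast to test, so the comparison was Fisher's exact test with Benjamini-Hochberg adjustment over all genes, p-values measuring departure from counting error alone. Shares used annotated and new spliced transcripts, with a minimum of 20 reads per gene in each library. Exon inclusion also used incomplete matches. Intervals are Wilson at 95%. Alternatives were other read minimums, read classes and TMM library sizes (edgeR 4.0.16). Coding identity used Biopython 1.88 and near copies blastn 2.17.0, overlaps bedtools 2.31.1, tests scipy 1.17.1. Functions were tested on simulated data. Named were all members, transcripts with at least 5 reads and 10% of a member with at least 50 reads, and the 3 most abundant genes per partner list. Exceptions with fewer reads (Gna13, Gnaq and others) were described as members. Members and lists were chosen with earlier results of these data known. The replicate numbers name samples of 1 group and pair nothing.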

Additional observations from a re-analysis of the deposited data

Results flagged for a closer look

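Models on the strand opposite to a member, classed as antisense to known genes and used in no comparison above, exceeded the limit of 3 reads that a count of 0 allows in both libraries for 5 members. Over the exons of Gnb1 they had 329 reads in replicate 1 and 307 in replicate 2, beside 423 and 508 reads of Gnb1 itself, and all were single-exon models. The main model spanned 155557962 to 155559267 of chromosome 4 in replicate 1, with 327 reads, and 155557653 to 155559031 in replicate 2, with 306 reads, which lies over the last Gnb1 exon. The level of these reads was 401 and 413 CPM. Over Gnaq they had 37 and 50 reads, more than the 19 and 27 of Gnaq, and the deposited annotation gives the main Gnaq antisense model a length of 1 base, so its extent is not known. Over Gna13 they had 14 and 13 reads, over Gna11 10 and 10, and over Gnal 4 and 11. The source of these reads was not tested.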

How the results depend on the processing

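Counting annotated transcripts only lowered the summed level of the 26 genes from 3551 to 2873 CPM and moved 19 of 26 single levels by more than their SD. TMM library sizes and the inclusion of ERCC reads moved 0 of 26, and reads over the same exons and strand moved 1, Gna15. Leaving out a replicate gave summed levels from 3470 to 3631 CPM and a share of the whole Gnao1 last exon from 49.3% to 51.9%. Gnb1 was the member called under each of the 5 alternatives run, with adjusted p from 0.00295 to 0.00607 by Fisher's exact test. The number of all genes called was 140 (1.58%) at 20 reads, 99 (0.541%) without a filter and 73 (1.12%) with annotated transcripts only. For the latter, fewer genes were tested (6509 against 8875). Counts of members with a different transcript, last exon or first exon share were 0 under every alternative run. Over all genes, 8 of 4684 (0.171%) were called for the main transcript, 5 of 2363 (0.212%) at 50 reads and 1 of 2592 (0.0386%) with annotated transcripts only. For the last exon 2 of 2644 (0.0756%) were called, and 1 of 3585 (0.0279%) with incomplete matches. First exon calls were 4 of 3720 (0.108%), and 3 of 4986 (0.0602%) with incomplete matches. At such shares, with 5 to 20 members tested, a count of 0 cannot set the members apart from all genes. No paired analysis was possible because there is 1 group, and without either library no test between libraries is left. Depth kept 3 of 26 members, with under 20 reads, out of the test between the libraries, and left wide intervals on shares in members with few spliced reads, such as Gna13.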
